A study of Drosophila melanogaster with 28 samples.

Results

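*LpR1* (CG31094), *CG1441*, *CG9485* and *CG10802* are 4 genes whose mean transcript ratios had opposite signs when *dsx* was lost in XX and in XY pupae, the pattern known from the yolk protein genes *Yp1* and *Yp2*. They were chosen by their CG numbers among the elements that the authors named for these genes, and each has 1 array element, so that they make up 4 of 15744 elements. *LpR1* encodes a lipophorin receptor of the LDL receptor family, which takes up lipid from circulating lipoprotein particles. *CG1441* belongs to the fatty acyl-CoA reductases, enzymes that make fatty alcohols, and *CG9485* encodes the glycogen debranching enzyme. For *CG10802* no role is annotated in the sources used here, so that a metabolic role was not shown for all 4 genes. The genes lie on chromosome arms 3R (*LpR1*), 2R (*CG1441* and *CG9485*) and X (*CG10802*).

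The sex of somatic tissues in Drosophila is set by a splicing cascade from *Sxl* through *tra* to *dsx*. TRA is made in females and directs splicing of *dsx* to the female isoform DSXF, while males without TRA make DSXM, and both isoforms are transcription factors that bind the same DNA sites. In the adult fat body, the organ that stores lipid and glycogen, DSXF activates *Yp1* and *Yp2* in females and DSXM represses them in males. A gene with this mode of control is expected to fall in XX animals and to rise in XY animals when *dsx* is removed, while a gene acted on in the same direction by both isoforms, or by 1 isoform alone, is not.

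Whole pupae were compared at 48 hour APF (after puparium formation) in 7 direct comparisons, each hybridized to 4 arrays, 28 in all. The sexes were compared in the Canton S (CS) strain, in the Berlin strain and in *tud* progeny, which descend from *tud*[1] bw sp mothers crossed to y w UBI-GFP fathers and lack a germline. CS females were also compared with 3 kinds of XX animals. These were *tra* pseudomales (y w P[UBI-GFP]/+; tra1/Df(3L)st-j7), which lack TRA, dsxD pseudomales (y w UBI-GFP/+; dsxD Sb1 e1/dsxM+R15), which make DSXM alone, and intersexual *dsx* nulls (dsx D+R3 / dsx M+R15), which make neither isoform and, when XX, also carry the UBI-GFP transgene. CS males were compared with XY *dsx* nulls of the same *dsx* alleles. All ratios give the first-named RNA over the second, so that a value above 0 means more transcript in females than in males, or in CS than in the mutant. The mutants differ from CS in genetic background as well as in *tra* or *dsx*, and these cannot be told apart in the comparisons with CS. Among *tud* progeny the females carried the UBI-GFP marker and were told from males by it. Sex and the paternal X chromosome with this marker thus cannot be told apart in that comparison. Each RNA was a pool of whole pupae, and fewer cells of a type and less RNA per cell cannot be told apart. CS females are the control in 3 of the comparisons, whose values are therefore given side by side.

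Between 4783 and 12023 elements had a value on an array, and 1064 elements had one on all 28. The mean correlation between the arrays of a comparison ranged from 0.479 (*tra* pseudomales) to 0.833 (XY nulls). *roX1*, a noncoding RNA of the male dosage compensation complex, lay far below 0 on all CS, Berlin and *tud* arrays (CS, from -5.32 to -3.96). It was near 0 on every *tra*, dsxD and XY null array with a value (from -0.46 to 0.36). In the XX null comparison, however, it was -0.23 on replicate 3 but -4.41 on replicate 4, and it had no value on replicates 1 and 2. Replicate 4 goes against the XX label in this RNA, so results of the 4 genes in XX nulls are given with and without it, and those of other genes where a call changed. Genes of the male germline list did not stand out on that array, with a median of -0.08 compared with -0.03 to 0.01 on the other XX null arrays. None of the 4 genes is in the male or the female germline list.

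The choice of the 4 genes rests on the wild type, *tud*, dsxD and both *dsx* null comparisons. The values in these comparisons are a description without a test. The difference between the CS and Berlin strains was not used for the choice, and it and the *tra* comparison were tested with limma. The authors took part of the genes downstream of *dsx* by higher transcript in CS females than in *tra* pseudomales, and part without it. *LpR1*, *CG9485* and *CG10802* had *tra* means below 0 and cannot have entered by such a call. An element was called when its *q* value was below 0.15. *LpR1* had a value on 26 of 28 arrays, *CG10802* on 27, *CG9485* on 23 and *CG1441* on 16.

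**Figure D1:**
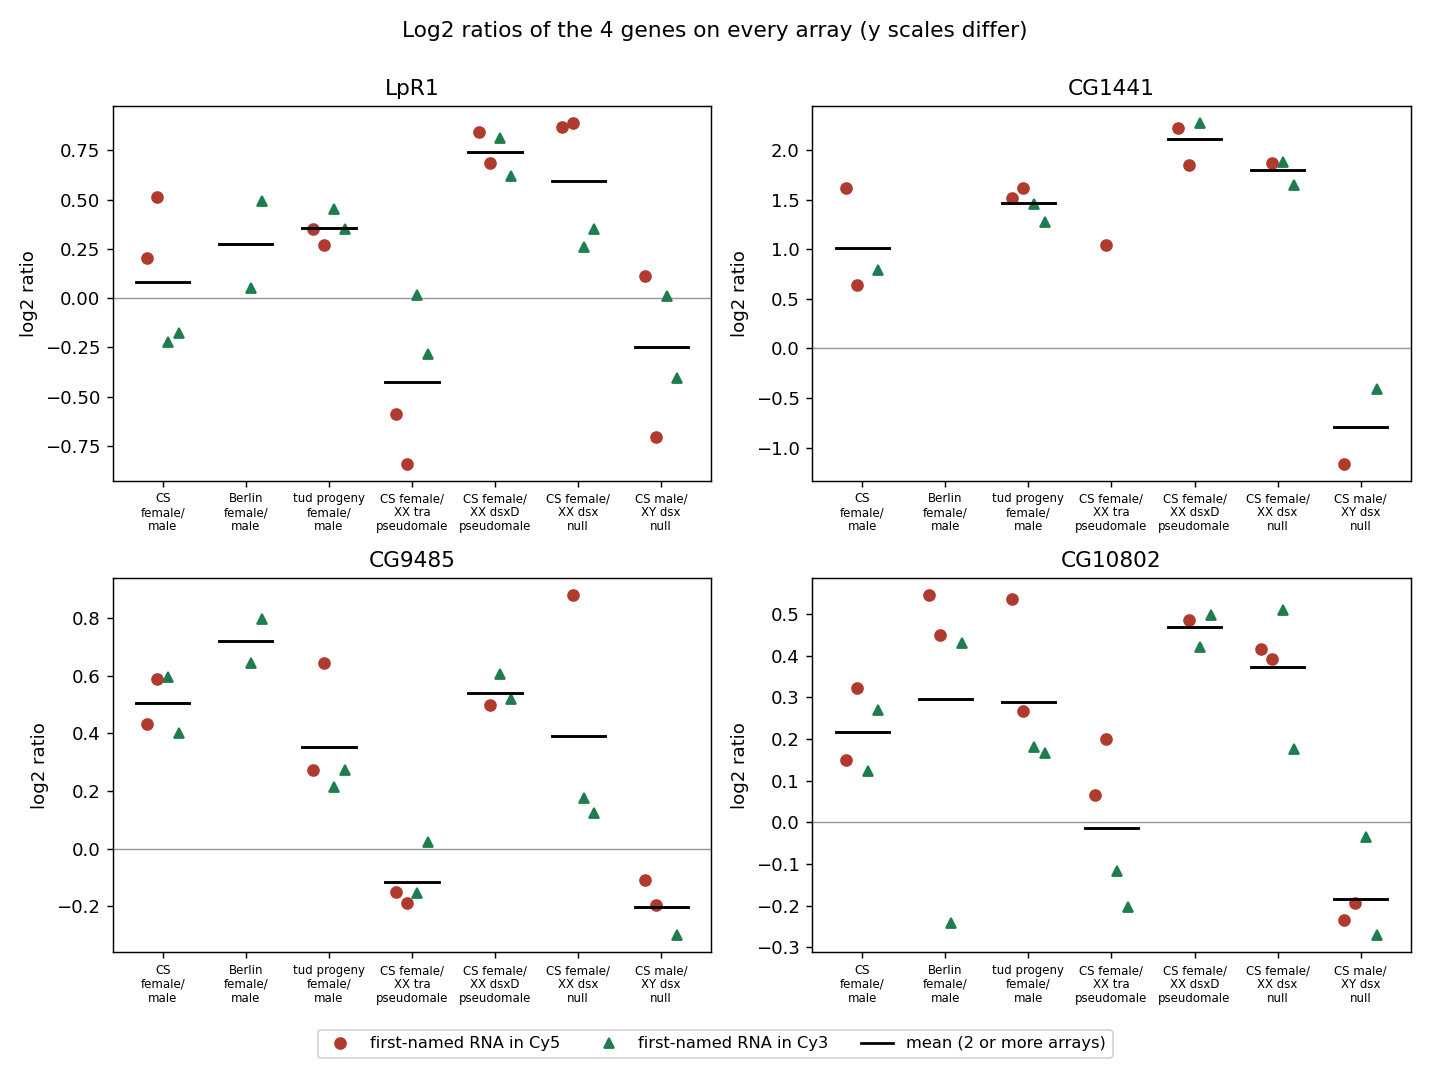
Log2 ratio (y axis) of each gene on every array in the 7 comparisons (x axis). Circles are arrays with the first-named RNA in Cy5, triangles those with it in Cy3, and lines are means of 2 or more arrays. For all 4 genes the XX null arrays lie above the XY null arrays, and *CG1441* spans the widest range, from -1.16 to 2.27.

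*CG1441* had the largest changes of the 4 genes. In the dsxD comparison its log2 ratios were 2.23, 1.85 and 2.27 on replicates 1 to 3, with no value on replicate 4. Transcript was thus 4.34-fold higher in CS females than in XX animals that make DSXM alone (mean 2.12 ± 0.23, SD, n = 3). In XX nulls the values were 1.87, 1.88 and 1.65 on replicates 2 to 4 (mean 1.80 ± 0.13, SD, n = 3, 3.49-fold), and the mean without replicate 4 was 1.88 (n = 2). The arrays of these comparisons overlapped only between 1.85 and 1.88. Of all elements with values on at least 2 arrays, 0.816% had a higher mean than *CG1441* in the dsxD comparison and 1.97% in the XX null comparison.

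In XY nulls *CG1441* lay on the other side of 0. Its values were -1.16 on replicate 1 and -0.41 on replicate 4, so that transcript was 1.73-fold lower in CS males than in XY nulls (mean -0.79 ± 0.53, SD, n = 2). Both arrays were below 0 and 2.06 log2 units or more below every XX null array. This mean rests on 2 arrays of opposite dye orientation, and 8.07% of all elements had a lower mean. The reductase transcript was also higher in females without a germline. Values in *tud* progeny were 1.52, 1.62, 1.46 and 1.27, a 2.77-fold difference (mean 1.47 ± 0.15, SD, n = 4). In CS they were 1.62, 0.64 and 0.80 on replicates 1, 2 and 4 (mean 1.02 ± 0.53, SD, n = 3), and no Berlin array had a value. From high to low, the means ran from dsxD and XX nulls through *tud* progeny and CS to XY nulls. Neighbours in this order overlapped between arrays, except XX nulls and *tud* progeny (1.65 and 1.62 at their nearest) and CS and XY nulls. The single value from a *tra* array was 1.05, so *CG1441* could not be tested there.

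*LpR1* was higher in CS females than in both dsxD pseudomales and XX nulls. In the dsxD comparison its values were 0.84, 0.69, 0.81 and 0.62, a 1.67-fold difference (mean 0.74 ± 0.11, SD, n = 4). These arrays were alike, and 6.30% of all elements had a higher mean. In XX nulls the values were 0.87, 0.89, 0.26 and 0.35, a 1.51-fold difference (mean 0.59 ± 0.33, SD, n = 4). All were above 0, but they split by dye. The mean was 0.88 with the CS female RNA in Cy5 and 0.31 with it in Cy3. Without replicate 4 the mean was 0.67 (n = 3).

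In XY nulls the direction of *LpR1* varied between arrays. The values were 0.11, -0.71, 0.01 and -0.40 (mean -0.25 ± 0.38, SD, n = 4), with 2 arrays above 0 and 2 below. The mean lay within its SD of 0, and 37.7% of all elements had a lower one. The opposite sign in XX and XY pupae thus held for the mean of this receptor gene and not array by array.

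The sex difference of *LpR1* in intact animals was smaller. In *tud* progeny the values were 0.35, 0.27, 0.45 and 0.35 (mean 0.36 ± 0.07, SD, n = 4), higher in females on every array. In CS they were 0.20, 0.51, -0.22 and -0.17 (mean 0.08 ± 0.35, SD, n = 4). The Cy5 arrays were above 0 and the Cy3 arrays below 0, so that no sex difference was seen beyond the spread. Berlin had values on replicates 3 and 4 alone, 0.05 and 0.49. In the order of its means, dsxD, XX nulls, *tud* progeny, Berlin, CS, XY nulls and *tra*, arrays of all neighbouring comparisons overlapped.

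*CG9485*, the glycogen debranching enzyme gene, was higher in females on every wild type and *tud* array with a value. In CS the values were 0.43, 0.59, 0.60 and 0.40 (mean 0.50 ± 0.10, SD, n = 4), and in Berlin they were 0.64 and 0.79 on replicates 3 and 4. In *tud* progeny they were 0.27, 0.64, 0.21 and 0.27 (mean 0.35 ± 0.20, SD, n = 4), with replicate 2 apart from the others. In the dsxD comparison the enzyme transcript was 1.45-fold higher in CS females, with 0.50, 0.60 and 0.52 on replicates 2 to 4 (mean 0.54 ± 0.06, SD, n = 3). The dsxD arrays overlapped the upper part of the CS range, and 2 CS arrays lay below all of them.

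The loss of *dsx* had a less even effect on *CG9485*. In XX nulls the values were 0.88, 0.17 and 0.12 on replicates 2 to 4 (mean 0.39 ± 0.42, SD, n = 3). The mean was thus carried by 1 array, the only one with CS female RNA in Cy5. It was 0.15 for the Cy3 arrays and 0.53 (n = 2) without replicate 4. In XY nulls the values were -0.11, -0.19 and -0.30 on replicates 1, 2 and 4 (mean -0.20 ± 0.10, SD, n = 3), below 0 on each. Of all elements, 41.6% had a lower XY null mean. In the order of means (Berlin, dsxD, CS, XX nulls, *tud*, *tra* and XY nulls) only Berlin and dsxD, and *tud* and *tra*, did not overlap between neighbours.

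*CG10802* had the smallest mean changes of the 4 genes in dsxD pseudomales and in both nulls, although *CG9485* was lower in XX nulls without replicate 2 (0.15). In the dsxD comparison the values were 0.49, 0.42 and 0.50 on replicates 2 to 4, a 1.38-fold difference (mean 0.47 ± 0.04, SD, n = 3). In XX nulls they were 0.42, 0.39, 0.51 and 0.17 (mean 0.37 ± 0.14, SD, n = 4), all above 0, and the mean was 0.44 ± 0.06 (SD, n = 3) without replicate 4, the lowest array. In XY nulls they were -0.23, -0.19, -0.03 and -0.27 (mean -0.18 ± 0.10, SD, n = 4), and 43.2% of all elements had a lower mean. All XY null arrays were below 0, with replicate 3 close to it, and together with *CG1441* and *CG9485* this makes 3 of the 4 genes below 0 on every XY null array (38.3% of elements).

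In intact animals *CG10802* was higher in females on every CS array (0.15, 0.32, 0.12 and 0.27, mean 0.22 ± 0.10, SD, n = 4). It was also higher in females on all *tud* arrays (0.54, 0.27, 0.18 and 0.17, mean 0.29 ± 0.17, SD, n = 4). All 4 genes were above 0 on every *tud* array (17.5% of elements), and all but *LpR1* on every CS array with a value (20.2%). In Berlin the values were 0.55, 0.45, -0.24 and 0.43 (mean 0.30 ± 0.36, SD, n = 4), and replicate 3 was alone below 0. The order of the means was dsxD, XX nulls, Berlin, *tud*, CS, *tra* and XY nulls. Arrays of neighbouring comparisons overlapped throughout this order.

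Set side by side, the XX null mean was above 0 and the XY null mean below 0 for all 4 genes, as the choice required; 24.1% of the 6419 elements measured in both comparisons had these signs. The difference between the XX and the XY effect was 2.59 for *CG1441*, 0.84 for *LpR1*, 0.59 for *CG9485* and 0.56 for *CG10802*. Without XX null replicate 4 these differences were 2.66, 0.92, 0.73 and 0.62. That of *CG9485* was 0.35 without XX null replicate 2 and 0.37 from medians over arrays, over 1.5 times smaller. For each gene the lowest XX null array was above the highest XY null array, by 0.15 for *LpR1*, 0.23 for *CG9485* and 0.21 for *CG10802*, and 21.6% of elements had this order without overlap. The mean XX effect was 2.39 times the size of the XY effect for *LpR1*, 2.29 times for *CG1441* and 2.04 times for *CG10802* (2.72, 2.38 and 2.40 times without replicate 4). For *CG9485* it was 1.95 times, but this turned on 1 array, with 2.62 times without replicate 4 and 0.74 times without replicate 2.

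A shift of the arrays as a whole bears on the smaller XY effects. The median of all elements was -0.10 in the XY null comparison and -0.01 in the XX null comparison. Genes of the male germline list were higher in CS males than in XY nulls, with a median of 0.84 and 93.8% of 665 elements above 0. The part of this germline difference in the XY values of the 4 genes was not tested. Relative to the median of each array, the XY null means were -0.67 for *CG1441*, -0.17 for *LpR1*, -0.11 for *CG9485* and -0.10 for *CG10802*. All 4 means kept their sign, and 46.7% of all elements were called below 0 in XY nulls. On XY null replicate 1, however, *CG9485* (-0.109) lay above the array median (-0.147). So did *CG10802* on replicate 3, with -0.034 compared with a median of -0.042.

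If the transcript ratio of CS females to CS males is carried through both null comparisons, a ratio of XX to XY nulls follows without a direct hybridization. It was -0.76 (SE 0.31) for *LpR1*, -1.57 (SE 0.49) for *CG1441*, -0.34 (SE 0.10) for *CG10802* and -0.09 (SE 0.26) for *CG9485*, on the log2 scale. By this estimate, which combines 3 comparisons, *LpR1*, *CG1441* and *CG10802* were lower in XX than in XY nulls. The null signs that chose the genes draw the estimate below 0, so that it is a description without a test. *CG9485* was within its SE of equal levels. Without XX null replicate 4 the values were -0.84, -1.64, -0.41 and -0.22 in the same order, and without replicate 2 that of *CG9485* was above 0 (0.15, SE 0.08).

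**Figure D2:**
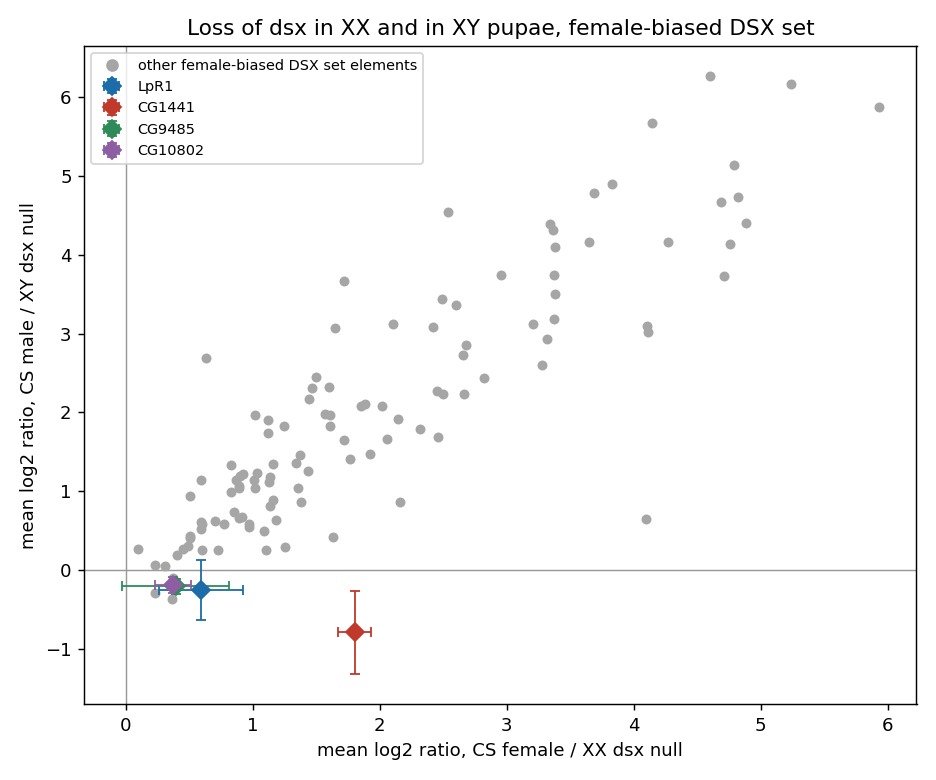
Mean log2 ratio of CS females over XX *dsx* nulls (x axis) and of CS males over XY *dsx* nulls (y axis) for the 117 female-biased elements of the DSX set with both values, with SD bars over arrays for the 4 genes. The 4 genes (diamonds) have XY means from -0.79 to -0.18, below 0, whereas 110 of the elements lie at or above 0.

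The 4 genes belong to the 124 female-biased elements that the authors list as regulated downstream of *dsx* (the DSX set). Of these, 117 had values in both null comparisons, and the median log2 ratio was 1.45 in XX nulls and 1.65 in XY nulls (both above 0, higher in CS). Without XX null replicate 4 the XX median was 1.47. Only 7 elements had an XY null mean below 0, which are the 4 genes, the homeotic gene *abd-A*, *rugose* and *CG7135*. *abd-A* and *rugose* had means of -0.36 and -0.29, and *CG7135* had -0.10 ± 0.17 (SD, n = 3). *rugose* and *CG7135* were named after their values were seen. Just inside the limit was *CG7135*, and just outside it was *l(1)G0334* with 0.06 ± 0.09 (SD, n = 4). Among the 4 genes *CG10802* was nearest to the limit, and the arrays of *LpR1* lay on both sides of it.

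dsxD pseudomales and XX nulls both lack DSXF, but only the former make DSXM. All 4 genes were above 0 on every array with a value in the dsxD comparison (21.4% of elements) and in the XX null comparison (23.8%). The dsxD mean exceeded the XX null mean in each gene, by 0.32 (SE 0.15) for *CG1441*, 0.15 (SE 0.17) for *LpR1*, 0.15 (SE 0.25) for *CG9485* and 0.10 (SE 0.07) for *CG10802*. The difference was within its SE for *LpR1* and *CG9485*. Without XX null replicate 4 it was 0.24 (SE 0.13) for *CG1441*, 0.069 (SE 0.21) for *LpR1*, 0.014 (SE 0.35) for *CG9485* and 0.029 (SE 0.043) for *CG10802*, so that for *CG10802* too it was within its SE. XX nulls showed 79.9% of the dsxD effect for *LpR1*, 85.1% for *CG1441*, 72.5% for *CG9485* and 79.7% for *CG10802*, or 90.7%, 88.6%, 97.4% and 93.8% without replicate 4. The share of *CG9485* was 27.5% without replicate 2.

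**Figure D3:**
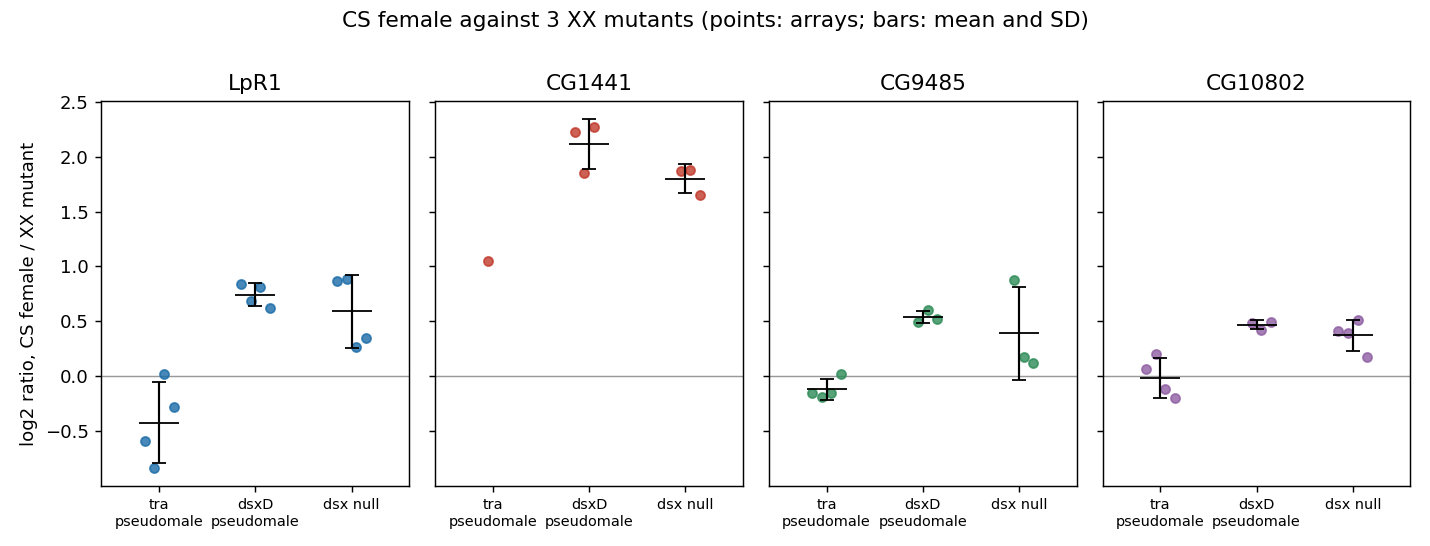
Log2 ratio of CS females over 3 kinds of XX mutants (x axis) for each gene, with points for arrays and bars for the mean and SD. In *LpR1*, *CG9485* and *CG10802* the *tra* arrays lie below all dsxD arrays, with means of -0.42, -0.12 and -0.01.

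XX *tra* pseudomales also make DSXM in place of DSXF, and their comparison with CS females asks whether the genes respond at this higher step as well. *LpR1* was 1.34-fold lower in CS females than in *tra* pseudomales, with values of -0.59, -0.84, 0.02 and -0.28. Its mean of -0.42 (SE 0.17, n = 4) passed the test (limma, two-sided, *q* = 0.117), below 0 on 3 of 4 arrays and opposite in sign to its dsxD and XX null means. In this comparison 24.7% of 7587 elements were called, 11.5% below 0. The call is not firm. Its *q* value was 0.208 after Benjamini-Hochberg adjustment, 0.225 with an unmoderated statistic and 0.227 to 0.250 in limma when replicate 1, 2 or 4 was left out. The arrays with CS female RNA in Cy5 had a mean of -0.71 and the others -0.13.

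*CG9485* and *CG10802* did not pass the test in *tra* pseudomales. The values of the debranching enzyme gene were -0.15, -0.19, -0.15 and 0.02, with a mean of -0.12 (95% interval -0.42 to 0.18, limma, *q* = 0.361). Those of *CG10802* were 0.07, 0.20, -0.12 and -0.20, with a mean of -0.01 (95% interval -0.34 to 0.31, limma, *q* = 0.541). Both intervals end below the dsxD means of these genes, but those means served in the choice and have their own error, so that this is a description. For *LpR1*, *CG9485* and *CG10802* all dsxD arrays lay above all *tra* arrays, an order held by 8.35% of 7136 elements. The *tra* means were 1.17, 0.66 and 0.48 log2 units below the dsxD means, values that were not tested since the dsxD comparison served in the choice of the genes.

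Part of the DSX set was admitted for higher transcript in CS females than in *tra* pseudomales on these arrays, so that the following counts are partly fixed by that choice. Of 120 female-biased elements with a *tra* value, 105 had a mean above 0 and 15 below, with a median of 0.47 compared with 1.31 in dsxD pseudomales. Counted from the lowest *tra* mean, *LpR1* was at place 2, *CG9485* at 8 and *CG10802* at 13.

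The sex difference was compared between the CS and Berlin strains for the 3 genes with values in both. CS minus Berlin was -0.19 for *LpR1* (95% interval -0.87 to 0.49, limma, *q* = 0.597), -0.22 for *CG9485* (-0.71 to 0.28, *q* = 0.515) and -0.08 for *CG10802* (-0.55 to 0.39, *q* = 0.658). None of the 3 was called, while 3.39% of 8153 elements were. The intervals of *LpR1* and *CG10802* reach beyond their sex differences on both sides of 0, so that a strain difference of that size was not detectable with these arrays. *LpR1* and *CG9485* were measured in Berlin on Cy3 arrays alone. With a term for the dye orientation the strain difference was -0.47 for *LpR1* (limma, *q* = 0.310) and -0.22 for *CG9485* (*q* = 0.466), and neither was called. Over both strains the means were 0.58 ± 0.14 for *CG9485* (6 of 6 arrays above 0), 0.26 ± 0.25 for *CG10802* (7 of 8), 0.14 ± 0.32 for *LpR1* (4 of 6) and 1.02 ± 0.53 for *CG1441* (3 of 3, CS alone).

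Means above 0 in the wild type, *tud*, dsxD and XX null comparisons and below 0 in XY nulls were found for all 4 genes, as chosen. Of the 5458 elements measured in all of these, 6.47% had the same 5 signs. The smallest of the 5 means in size was 0.79 for *CG1441*, 0.20 for *CG9485*, 0.18 for *CG10802* and 0.14 for *LpR1*. Across arrays, the log2 ratios of the genes were positively related to each other, with Pearson's r from 0.56 (*LpR1* and *CG1441*, 16 arrays) to 0.83 (*CG1441* and *CG10802*, 15 arrays). These arrays share RNA types and the 4 genes were chosen for a common pattern, so that r is a description.

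The named elements most like each gene were found in the same way, among those with at least 18 arrays in common. *LpR1* was most like *CG30427* (r = 0.72, 24 arrays), *CG14852* (0.72, 21 arrays) and *CG9485* (0.72, 23 arrays). *CG9485* was most like *resilin* (r = 0.83, 23 arrays), which encodes an elastic cuticle protein, then *LpR1* and *CG11699* (0.72, 23 arrays). *resilin* had lower means than *CG9485* in the dsxD (0.11) and XY null (-0.89) comparisons. *CG10802* was most like *CG4404* (r = 0.73, 22 arrays), *Gapdh2* (0.73, 27 arrays), a glycolytic enzyme gene, and *CG13603* (0.72, 25 arrays). *CG1441* had too few arrays to be matched. *resilin*, *CG14852*, *CG11699* and *Gapdh2* shared the signs of the 4 genes, above 0 in dsxD and XX nulls and below 0 in XY nulls. Their XY null means were -0.89, -0.19, -0.06 and -0.14. *CG30427* (0.87) and *CG4404* (0.29) were above 0 in XY nulls, and *CG13603* was -0.02 in the dsxD comparison.

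Other genes of the pathways were taken from fixed lists. Of 16 fatty acyl-CoA reductase genes, 2 besides *CG1441* could be named on the arrays, *CG12268* and *CG30427*. Both were called above 0 in dsxD pseudomales (12.9% of all elements), XX nulls (20.2%) and XY nulls (34.2%), and neither in *tra* pseudomales. *CG30427* was 2.28 in the dsxD comparison (limma, *q* = 8.13e-05), 2.16 in XX nulls and 0.06 in *tra* pseudomales (*q* = 0.487). In XY nulls it was 0.87 (limma, *q* = 0.00554), opposite in sign to *CG1441*, as was *CG12268* with 1.64 (*q* = 0.00027). *CG12268* had too few XX null arrays to be tested without replicate 4. *CG30427* is itself in the list of DSX-regulated genes drawn from these arrays, and its values are not independent evidence. In the dsxD comparison the median was 1.57 for both reductases and -0.02 for all elements. This median is of 2 elements, *CG30427*, which was listed partly by this same value, and *CG12268* (0.86 ± 0.89, SD, n = 3). It therefore gives no measure of the 16 genes of the family.

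Of 13 genes of carbohydrate metabolism, 5 had a named element. In *tra* pseudomales 2 were called above 0 (13.3% of all elements), *Pepck* (1.66, limma, *q* = 0.00602), the key enzyme gene of gluconeogenesis, and *Trehalase* (0.60, *q* = 0.0293), whose product splits the blood sugar trehalose. The list's median was 0.09 and that of all elements 0.0041. *Pepck* was also called above 0 in dsxD (0.98, *q* = 0.0355), XX null (1.80, *q* = 0.000161) and XY null pupae (2.22, *q* = 6.86e-06) in limma, so that it was higher in CS than in each mutant. *GlyS*, the glycogen synthase gene that acts opposite to *CG9485*, was called below 0 in XX nulls (-0.19, limma, *q* = 0.145), though not without replicate 4 (*q* = 0.194), and in no other mutant. *Gapdh2* had the same signs as *CG9485* in both null comparisons, 0.29 in XX nulls (*q* = 0.0578) and -0.14 in XY nulls (*q* = 0.104), and was called in both by limma. *Trehalase* was called above 0 in XY nulls as well (0.13, limma, *q* = 0.122) and, without replicate 4 alone, in XX nulls (0.28, *q* = 0.141). Of all elements, however, 80.9% were called in XY nulls (34.2% above 0 and 46.7% below), and 57.3% after Benjamini-Hochberg adjustment. The small XY null values of *Gapdh2* and *Trehalase* are thus not set apart by their calls. In XX nulls 20.2% of all elements were called above 0 and 20.2% below. *Hexokinase A* was called in *tud* progeny (0.44) and in none of the mutants. The authors list it as sex-biased from these arrays, so that its *tud* call is not independent evidence.

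Of 8 genes of lipid transport and storage, *yolkless* and *brummer* could be named. *brummer*, a triglyceride lipase gene, was called below 0 in both XX nulls (-0.46, limma, *q* = 0.0209, 20.2% of all elements) and XY nulls (-0.57, *q* = 0.00263, 46.7%). It thus did not share the opposite signs of *LpR1*. *yolkless*, the yolk protein receptor gene of the oocyte and of the same receptor family as *LpR1*, had values in 2 dsxD arrays (mean -0.06) but none in *tra* pseudomales or XX nulls. Of 4 genes of tRNA charging and modification, 3 were named. None was called in the pseudomales or in XX nulls, and *Aats-asp* (-0.18) and *Aats-his* (-0.24) were called below 0 in XY nulls, as were 46.7% of all elements.

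Larval fat body genes moved strongly in the mutants. *Lsp1alpha*, *Lsp1beta*, *Lsp1gamma*, *Fbp1* and *Fbp2*, which encode storage proteins and a storage protein receptor or other fat body products, were the 5 of 9 fat body genes with a named element. All 5 were called below 0 in *tra* pseudomales (median -1.71, 11.5% of all elements called below 0), dsxD pseudomales (-1.29, 13.4%), XX nulls (-1.29, 20.2%) and XY nulls (-0.92, 46.7%). In *tud* progeny 3 were called above 0 (7.68% of all elements). The medians of all elements lay between -0.10 and 0.0041 in these comparisons. The sex difference of the fat body genes was not the same in all strains. In CS *Lsp1alpha* was -1.09 (limma, *q* = 0.00132) and *Lsp1beta* 0.80 (*q* = 0.00343), whereas *Lsp1alpha* was 0.41 in Berlin and 1.39 in *tud* progeny. Per array, the median of the 5 was from -2.01 to -1.52 in *tra* pseudomales, from -1.48 to -0.62 in dsxD pseudomales, from -1.80 to -0.55 in XX nulls and from -1.19 to -0.63 in XY nulls. RNA of these genes was thus lower in CS than in every mutant, whereas the 4 genes were higher in CS females than in dsxD pseudomales and XX nulls. In XY nulls, and in *tra* pseudomales for the 3 genes measured there, both had means below 0, although of the 3 genes only *LpR1* passed the test. The part of the fat body in the values of the 4 genes was not tested.

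**Figure D4:**
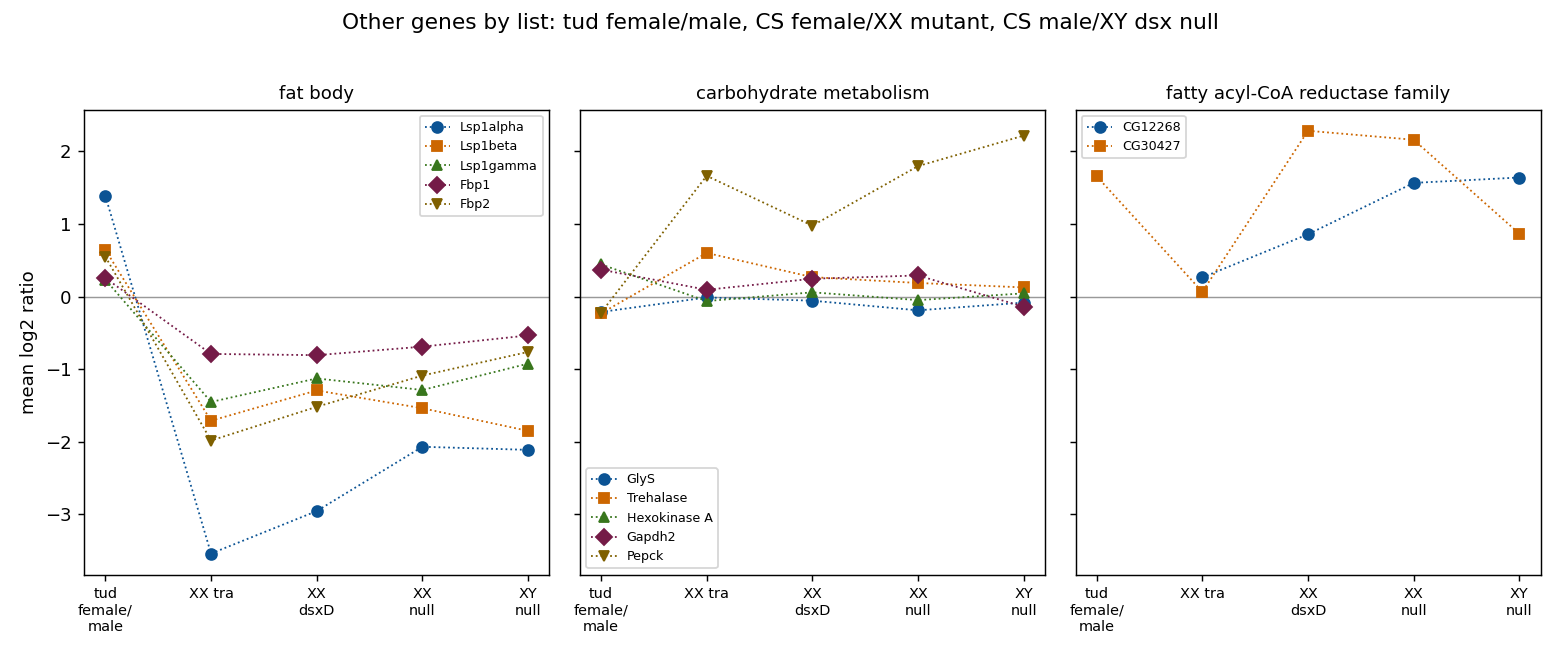
Mean log2 ratio (y axis) of named fat body, carbohydrate metabolism and fatty acyl-CoA reductase genes in 5 comparisons (x axis), with a marker for each gene. The 5 fat body genes lie below 0 in all 4 mutants, *Pepck* lies above 0 in all 4, and both reductases lie above 0 in XY nulls.

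The authors also name *abd-A*, *CG8086* and *CG14995* as genes with opposite responses to the loss of *dsx*. *abd-A* had the signs of the 4 genes, 0.36 ± 0.18 in XX nulls and -0.36 ± 0.23 in XY nulls (SD, n = 3 each), but in *tra* pseudomales it was called above 0 (0.48, limma, *q* = 0.0725). As *abd-A* is in the DSX set drawn from these arrays, this call is not independent evidence. *CG8086* had the inverse signs, -1.97 in XX nulls and 0.36 in XY nulls. *CG14995* has 2 elements, with -0.65 and -0.63 in XX nulls and 0.76 and 0.81 in XY nulls, but of opposite sign in the dsxD comparison (-0.88 and 1.33). Leaving out XX null replicate 4 changed no other call of a list gene in XX nulls, except that *roX1* could not be tested. In the check of the genotypes, the *tra* element was 0.90 ± 0.27 (SD, n = 4, limma, *q* = 0.0118) in CS females relative to *tra* pseudomales.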

How the data were processed

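Per the labels and the methods, RNA of 2 genotypes was labeled with Cy3 and Cy5 and hybridized to 1 array, with the dyes exchanged between replicates 1 and 2 and replicates 3 and 4. The values deposited by the authors are log2 ratios after global loess within each array in LIMMA (version not given in the sources used here). Elements dim in both channels, or flagged on the array image, have no value, and which of these removed *CG1441* from some arrays was not tested. The dye swap was already turned. The direction was taken from the authors' named fold changes of DSX-regulated genes on arrays of both orientations, in the *tud*, dsxD and both null comparisons. The CS, Berlin and *tra* comparisons were not covered by this. There *roX1* was below 0 on all CS and Berlin arrays, and the *tra* element was above 0 on all *tra* arrays (from 0.53 to 1.17). The labels of 2 *tud* arrays (replicates 2 and 4) disagree on the sex in channel 2, and the source name was used. Control elements (32) were left out. The authors' own fold changes and their tests were not used as results.

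The ratios were used as deposited, in limma 3.58.1 and R 4.3.3, with no further centering. A moderated test against 0 (*tra*, list genes), or between CS and Berlin, was two-sided, and an element entered it when 2 or more arrays (of each strain) measured it. Storey's *q* used lambda from 0.05 to 0.95 in steps of 0.05. A value below 0.15 was called, as in the methods. Replicates are stated to be biological. The number of arrays limits the precision. The script was tested on simulated data. The alternatives were Benjamini-Hochberg adjustment, a one-sided test, a dye term, centered or scaled arrays, a minimum of 3 arrays, an unmoderated statistic, medians, a replicate block and leaving out each replicate. Calls of list genes without XX null replicate 4 were added after seeing the data.

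The 4 genes and the lists (fat body, fatty acyl-CoA reductase, carbohydrate, lipid, tRNA, germline, sex hierarchy) were chosen with earlier results of these data known. Named besides them are the 3 elements most like each gene and those next to the limit in XY nulls. The authors' files available here name 2357 of 15744 elements, so list genes without a named element, among them *Yp1*, *Yp2* and *dsx*, were not analysed here. Chromosome arms are from Release 6 plus ISO1 MT. Figures were drawn with Python and matplotlib.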

Additional observations from a re-analysis of the deposited data

Results flagged for a closer look

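For *CG1441*, *CG9485* and *CG10802* every XX null array with a value was above 0 and every XY null array with a value was below 0, with differences of 2.59, 0.593 and 0.557 between the XX and XY effects on the log2 scale. The difference was not tested, since the opposite signs chose the genes. Relative to the array medians, *CG9485* on XY null replicate 1 and *CG10802* on XY null replicate 3 were not below. *CG9485* on replicate 2 of the *tud* progeny (0.642) and *CG10802* on replicate 3 of the Berlin comparison (-0.241) lay far from the other 3 arrays of their group. These were 2 of 16 groups of 4 arrays, and chance gives about 1 in 20.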

How the results depend on the processing

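Of 212 alternative values without a test 208 kept their sign and moved by less than the SD over arrays. Leaving out an array or taking the median cannot move a mean by more than this SD. For these settings only a change of sign could thus be seen, and the count does not measure how firm the values are. Of 69 values with a test, 59 kept their direction and side of the threshold. Elements called in *tra* pseudomales (1876) numbered 1080 after Benjamini-Hochberg adjustment, 616 in a one-sided test for higher in CS females, 3764 with a dye term, 868 with an unmoderated statistic and from 739 to 1419 with a replicate left out. For *LpR1* in *tra* pseudomales the value of -0.42 was no longer called after Benjamini-Hochberg adjustment, in the one-sided test (*q* = 1, as it lies below 0) or with the unmoderated statistic, and kept its call with a dye term in limma (*q* = 0.0168). It ranged from -0.57 to -0.29 with a replicate left out (*q* from 0.0840 to 0.250). *CG10802* in *tra* pseudomales ranged from -0.085 to 0.049, and was 0.021 without replicate 3 and 0.049 without replicate 4. Elements called between CS and Berlin (276, with 1052 at an unadjusted p below 0.05) numbered 151 after Benjamini-Hochberg adjustment, 559 with a dye term, 11 with scaled arrays, 139 with values on 3 arrays of each strain, 188 with the replicate block and from 12 to 466 with a replicate left out, fewest without CS replicate 4. CS minus Berlin of *CG10802* was 0.041 with centered arrays and ranged from -0.26 to 0.0027 with a replicate left out, reversing without Berlin replicate 1. The CS mean of *LpR1* ranged from -0.065 to 0.18 and reversed without replicate 2. With scaled arrays the *tud* means were 0.47 for *LpR1* and 1.86 for *CG1441*, and the XX null mean of *CG1441* was 2.11. The causes of these changes were not tested.

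Same-numbered CS and Berlin arrays deviated together with r from 0.05 to 0.18, other pairs from -0.22 to 0.28. The sign of r followed the dye orientation. All pairs of the same orientation were positive (0.05 to 0.28), and all pairs of opposite orientation were negative (-0.22 to -0.04). Pairs of the same number were thus not set apart from other pairs of the same orientation. *LpR1* and *CG9485* have Berlin values in 1 orientation alone. With the replicate block CS minus Berlin was -0.47 for *LpR1* (limma, *q* = 0.422), -0.22 for *CG9485* (*q* = 0.556) and -0.08 for *CG10802* (*q* = 0.630), and no call of these genes changed. *CG1441* had too few arrays for a test in *tra* pseudomales or between strains, and its XY null mean with a replicate left out is a single array (-1.16 or -0.41).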
